A study of Rattus norvegicus with 12 samples.

Results

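Egr1, Egr2, Egr3, Egr4, Nr4a1, Nr4a2 and Nr4a3, the 7 genes of the early growth response and NR4A families, were followed in mixed glial cultures from newborn rat brain. The set was taken by gene symbol and covered 15 of the 8740 probe sets on the array, with 4 for Egr1, 1 for Egr2, 1 for Egr3, 2 for Egr4, 2 for Nr4a1, 2 for Nr4a2 and 3 for Nr4a3. The genes were selected on their treated-minus-control signals in these arrays, so that those values are given as a description, without a test. Each of 3 experiments used different cultures and gave 1 array (Affymetrix, rat genome) for each of 4 groups. Th1 cultures received IL-2, interferon-gamma, TNF-alpha and G-CSF. M/M cultures, named for monocytes and macrophages, received IL-1alpha, IL-1beta, IL-12p40 and TNF-alpha, and IL-6 as well according to the methods, though the labels omit it. Th2 cultures received porcine TGF-beta1 together with G-CSF, IL-10 and IL-5, and also IL-4 according to the methods but not the labels. Cytokines were used at 10 ng/ml each for 6 hours in medium with 2% fetal bovine serum, and control cultures had that medium without cytokines.

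EGR proteins are zinc finger transcription factors, and NR4A proteins are orphan nuclear receptors that act without a known hormone ligand. Both families belong to the immediate early genes, whose transcription begins within minutes of a growth factor, a cytokine or a depolarisation, without new protein synthesis, and which as a rule falls again soon after. Kinase cascades reach these genes through serum response factor with its ELK partners, which binds CArG boxes, and through CREB, which binds cAMP response elements. In the nervous system Egr1 and Egr3 are best known from activated neurons, Egr2 (Krox20) from myelinating Schwann cells, where it drives myelin genes, and Nr4a2 from dopamine neurons.

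Signals are the linear probe-set intensities that were deposited, and they were not rescaled. A ratio is the log2 signal of a treated array minus that of the control array of the same experiment, so that a log2 ratio of 1 is a doubling. Array medians lay between 24.5 and 60.98, and the median log2 ratio of all probe sets was 0.14 (Th1), 0.33 (M/M) and 0.19 (Th2). Values called centred had each array's median log2 signal subtracted first. Markers measured in control arrays ranked high for astrocytes (6 of 7 genes, median percentile 93.6 of all probe sets), oligodendrocytes (6 of 7, 93.9), fibroblasts (5 of 5, 87.2) and microglia (6 of 8, 81.9). They ranked lower for neurons (6 of 8, 43.2) and endothelium (4 of 5, 42.0), though a rank depends on the probes as well as on the RNA. Gfap had no probe set under that symbol in the annotation used here. Cd14 was the 1 microglial marker of 6 that passed the limma test with M/M cytokines (adjusted p = 0.0486), as did 0.263% of all probe sets. With centred or quantile-normalised arrays 0 probe sets passed with M/M cytokines. The microglial markers had a median M/M log2 ratio of 0.52, or 0.10 centred. The part of Cd14 in the results was not tested. In RNA from whole cultures, fewer cells of a type and less RNA per cell cannot be told apart.

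The 3 treated arrays of experiment 3 went against their labels, which bears on every value given for a single mixture. Across 97 probe sets with a shared mixture pattern in experiments 1 and 2, the array labelled M/M in experiment 3 correlated at 0.92 with the Th1 arrays and at -0.38 with the M/M arrays of those experiments. The array labelled Th1 correlated at 0.85 with Th2 and at -0.67 with Th1, and the array labelled Th2 at 0.81 with M/M and at -0.47 with Th2. Cd74, the MHC class II invariant chain, which interferon-gamma induces, shows this directly. Its signal was 874, 219 and 1.40 in experiments 1, 2 and 3 on Th1 arrays, 29.9, 5.37 and 956 on M/M arrays, 13.5, 1.54 and 2.90 on Th2 arrays, and 26.3, 2.30 and 2.50 on control arrays. Irf1, another interferon response gene, had 2850, 1761 and 116 on Th1 arrays, 1188, 381 and 4575 on M/M arrays, 256, 74.2 and 373 on Th2 arrays, and 325, 93.8 and 153 on control arrays. Both genes were chosen after their values were seen. The arrays were kept in the groups of their labels, the members' means against control are also given without experiment 3, and counts over all 9 treated arrays do not depend on which mixture an array is called.

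Egr2 and 3 of the 4 Egr1 probe sets had a signal above that of the matched control on all 9 treated arrays, which held for no probe set of the other members. The share of all probe sets with this order was not computed, while 14% (Th1), 32% (M/M) and 25% (Th2) were higher in 3 of 3 experiments. The 3 treated arrays of an experiment share 1 control array, so that the 9 ratios are not independent. The promoters of Egr1 and Egr2 are shown because these genes also shared a sequence feature. The windows run from 250 bases before to 50 bases after the RefSeq start site (assembly GRCr8), on the strand of the gene and 5′ to 3′, with CArG boxes in capitals. Egr1 lies at chr18:26736828-26737127 on the plus strand and Egr2 at chr20:21054392-21054691 on the minus strand, where its start site is 760 bases inside the annotated gene.
Egr1: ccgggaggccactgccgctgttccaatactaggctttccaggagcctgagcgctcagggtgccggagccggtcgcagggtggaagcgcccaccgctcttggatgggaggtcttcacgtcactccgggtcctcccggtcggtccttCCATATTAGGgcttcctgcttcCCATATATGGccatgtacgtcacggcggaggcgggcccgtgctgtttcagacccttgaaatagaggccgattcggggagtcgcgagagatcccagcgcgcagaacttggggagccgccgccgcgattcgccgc
Egr2: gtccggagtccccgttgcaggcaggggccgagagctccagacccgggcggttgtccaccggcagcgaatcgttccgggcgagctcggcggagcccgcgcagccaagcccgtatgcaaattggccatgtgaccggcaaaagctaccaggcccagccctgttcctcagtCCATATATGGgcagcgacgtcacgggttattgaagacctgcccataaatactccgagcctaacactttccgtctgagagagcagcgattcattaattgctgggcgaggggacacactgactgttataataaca
The CArG box, 2 C, 6 A or T and 2 G, occurred in 1.64% of 33469 rat promoter windows of this length. Egr1 held 1 starting 105 bases and 1 starting 83 bases before the start, and Egr2 held 1 starting 83 bases before the start. The box at 83 bases had the same 10 letters at the same position in both genes. Both also held the letters TGACG, the core of a cAMP response element, read here on the other strand as CGTCA, 66 bases before the start, and Egr1 another 135 bases before it. TGACG on either strand was frequent, in 21.2% of windows, and all 5 members with a promoter entry had it.

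Windows for Egr4, Nr4a1 and Nr4a2 held no CArG box, which says only that these letters are not in these windows. The start sites used for Nr4a1 and Nr4a2 lie 12985 and 11039 bases inside the annotated genes, so that other promoters of these genes were not analysed here, and no contrast with Egr1 and Egr2 is drawn. Nr4a1, the member with the most TGACG matches, lies at chr7:134259888-134260187 on the plus strand, with CGTCA, which is TGACG on the other strand, in capitals.
Nr4a1: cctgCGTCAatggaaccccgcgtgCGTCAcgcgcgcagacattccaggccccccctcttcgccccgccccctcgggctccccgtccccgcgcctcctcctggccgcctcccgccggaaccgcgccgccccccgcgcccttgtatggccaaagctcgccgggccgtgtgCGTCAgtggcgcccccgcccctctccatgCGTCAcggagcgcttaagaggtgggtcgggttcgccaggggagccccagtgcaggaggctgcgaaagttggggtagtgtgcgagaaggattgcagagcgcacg
It held 4 of them, starting 246, 226, 82 and 53 bases before the start, against 2 in Egr4 (178 and 110 bases before) and 1 in Nr4a2 (8 bases before). The full palindrome TGACGTCA, which contains TGACG and was in 1.83% of windows, was in 0 of the 5, as was AAAGGTCA, the element that NR4A monomers bind (1.43% of windows). The Egr site, searched as GCGTGGGCG or GCGGGGGCG on both strands and found in 3.20% of windows, occurred in Nr4a1, 73 bases before its start. An NF-kappaB site, found in 7.51%, was in Egr4, at 153 and 92 bases, and in Nr4a1, at 16 bases. Motifs were picked with the expression values known, and a match is a run of letters, not a bound site. Egr3 and Nr4a3 were not analysed for promoter sequence.

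**Figure D1:**
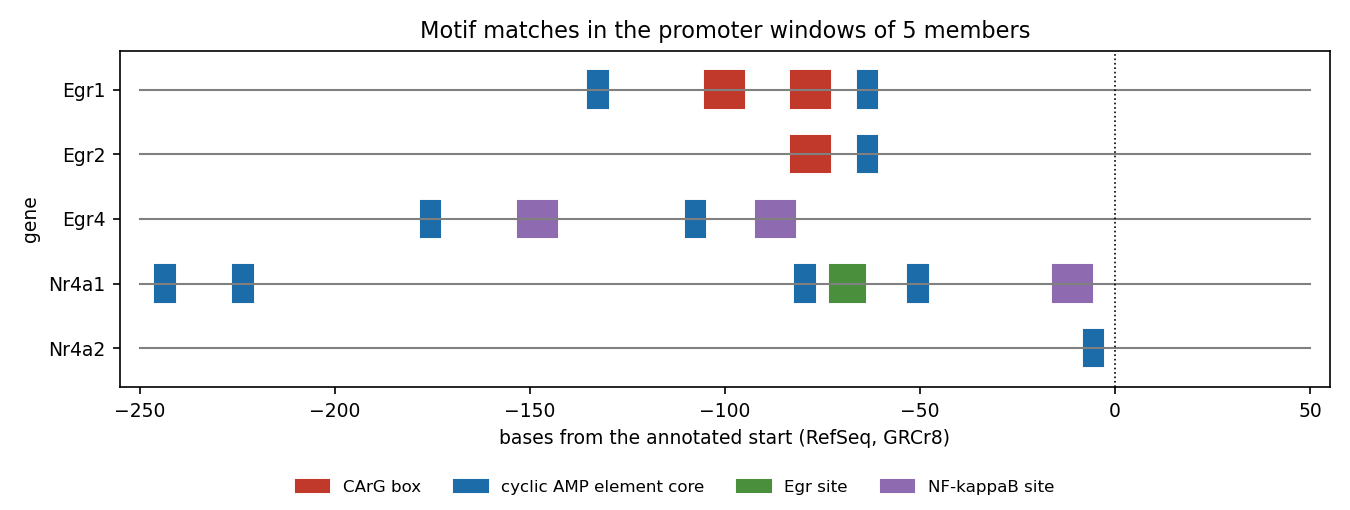
Positions of CArG boxes, TGACG cores of the cAMP element, Egr sites and NF-kappaB sites in the promoter windows of 5 members, in bases from the annotated start site. The CArG boxes of Egr1 and Egr2 coincide at 83 bases before the start, and the windows of Egr4, Nr4a1 and Nr4a2 hold none.

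Egr1 encodes the family's best studied activator, a factor for growth, matrix and adhesion genes. By its probe set AF023087_s_at the signal was 1251, 836 and 1046 in experiments 1, 2 and 3 on Th1 arrays and 2521, 944 and 1073 on M/M arrays. It was 1832, 675 and 986 on Th2 arrays and 942, 402 and 478 on control arrays. Every treated array thus exceeded the control of its own experiment, while experiment 1 was the brightest throughout. The lowest M/M signal stood just above the highest control signal, whereas Th1 and Th2 arrays overlapped the control arrays. Of all probe sets, 1.54% had Th1 signals, 7.48% M/M signals and 2.77% Th2 signals wholly above control. The mean log2 ratio was 0.87 ± 0.40 (Th1), 1.27 ± 0.13 (M/M) and 0.92 ± 0.15 (Th2) (SD, n = 3), or 0.73, 1.33 and 0.85 without experiment 3. The 9 folds ran between 1.33 and 2.68 with a median of 2.08, and 6 exceeded 2-fold. With centred arrays all 9 ratios remained above 0 (means 0.71, 0.85 and 0.71 for Th1, M/M and Th2), but 2 exceeded 2-fold.

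Egr1 had a pair of further probe sets with the same order of group means at lower signal. In experiment 1, however, their highest array was Th2, where that of AF023087_s_at was M/M. M18416_at had 233, 210 and 136 on Th1 arrays, 407, 229 and 315 on M/M arrays, 437, 215 and 263 on Th2 arrays, and 171, 100 and 126 on control arrays. Its M/M and Th2 arrays lay wholly above the control arrays, and its log2 ratio was 0.54 ± 0.49 (Th1), 1.26 ± 0.07 (M/M) and 1.17 ± 0.16 (Th2), or 0.76, 1.22 and 1.23 without experiment 3. Probe set rc_AI176662_s_at had 82.3, 85.3 and 49.0 on Th1 arrays, 118, 88.6 and 70.6 on M/M arrays, 123, 80.3 and 63.1 on Th2 arrays, and 69.3, 35.3 and 23.6 on control arrays. Its log2 ratio was 0.86 ± 0.54 (Th1), 1.23 ± 0.41 (M/M) and 1.14 ± 0.30 (Th2), or 0.76, 1.05 and 1.01 without experiment 3, and M/M arrays did not overlap control arrays. The Th1 fold in experiment 3 was near 1 for M18416_at, at 1.08, and 2.08 for this probe set, so that these 3 Egr1 probe sets differed most from each other on the array labelled Th1 in that experiment.

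The fourth Egr1 probe set, U75398_s_at, did not follow the others. It gave 89.9, 136 and 34.1 on Th1 arrays, 128, 148 and 49.6 on M/M arrays, 117, 138 and 28.9 on Th2 arrays, and 94.1, 145 and 29.3 on control arrays. Treated and control signals were intermingled, with folds between 0.936 and 1.69, 5 of 9 above 1 and mean log2 ratios of 0.02 (Th1), 0.41 (M/M) and 0.07 (Th2). Without experiment 3 these were -0.08, 0.24 and 0.12. The suffix _s_at marks a probe set whose probes match more than 1 transcript sequence, and all the Egr1 probe sets but M18416_at carry it.

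**Figure D2:**
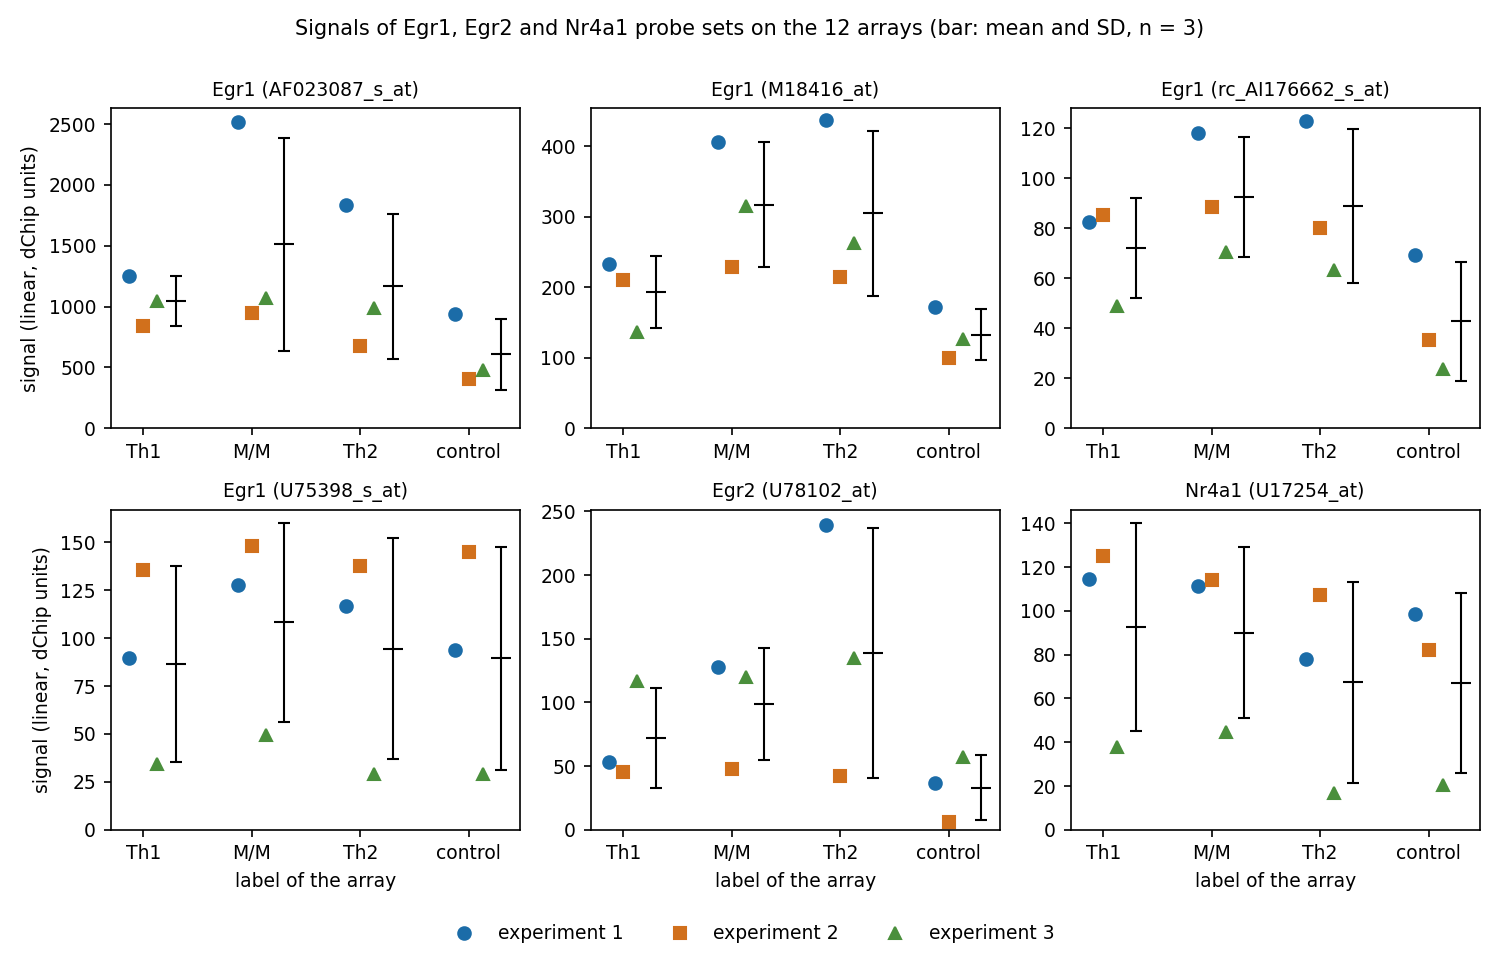
Deposited signal of the Egr1 and Egr2 probe sets and of Nr4a1 U17254_at on each array, on a linear axis, by group and experiment. Bars give the mean and SD of each group (n = 3). For 3 of the 4 Egr1 probe sets and for Egr2, each treated array lies above the control of the same experiment, while U75398_s_at shows no such order.

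Egr2 had the largest mean ratios of the set under all 3 labels. Its single probe set, U78102_at, gave 53.1, 45.7 and 117 on Th1 arrays and 128, 48.0 and 120.0 on M/M arrays. It gave 240, 42.6 and 135 on Th2 arrays, against 36.5, 5.90 and 57.2 on control arrays. Every group overlapped the control arrays, since the control of experiment 3 was brighter than several treated arrays of experiments 1 and 2, but no treated array fell below the control of its own experiment. The folds in experiments 1, 2 and 3 were 1.45, 7.75 and 2.05 for Th1, 3.51, 8.14 and 2.10 for M/M, and 6.56, 7.22 and 2.35 for Th2 cytokines, so that 8 of 9 exceeded 2-fold (7 with centred arrays). The highest fold of each mixture came from experiment 2, where the control signal was the dimmest. That control array was dim as a whole, with a median of 38.39 against 56.05 to 60.98 on the treated arrays of experiment 2. The mean log2 ratio was 1.51 ± 1.28 (Th1), 1.97 ± 0.99 (M/M) and 2.27 ± 0.90 (Th2) (SD, n = 3), or 1.75, 2.42 and 2.78 without experiment 3. An offset of 16 added to every signal, which damps dim values, lowered these means to 0.92, 1.30 and 1.58 for Th1, M/M and Th2. With centred arrays the folds of experiment 2 were 4.88, 5.40 and 4.94 for Th1, M/M and Th2. The highest centred Th2 fold, 6.65, came from experiment 1.

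Egr3, a relative of Egr1 that Egr1-inducing signals also activate in neurons, showed no common order. Its probe set U12428_at gave 51.0, 39.8 and 8.40 on Th1 arrays, 37.5, 43.5 and 2.70 on M/M arrays, 46.4, 63.6 and 12.3 on Th2 arrays, and 45.2, 58.8 and 3.90 on control arrays. M/M arrays were below their controls in 3 of 3 experiments (mean log2 ratio -0.41 ± 0.13) and Th2 arrays above them in 3 of 3 (0.60 ± 0.91). The Th2 folds in experiments 1, 2 and 3 were 1.02, 1.08 and 3.15, and with centred arrays Th2 was above control in 2 of 3. The M/M and Th2 signals of experiment 3 were dim, and without that experiment the means were -0.35 for M/M and 0.07 for Th2 cytokines. Th1 arrays were mixed, at 0.24 ± 0.84, and at -0.20 without experiment 3.

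Egr4, the remaining zinc finger member, was near its control level on most arrays by probe set rc_AI144873_at. This gave 105, 88.7 and 7.90 on Th1 arrays, 106, 110 and 45.6 on M/M arrays, 97.0, 96.8 and 33.7 on Th2 arrays, and 100.4, 91.5 and 40.5 on control arrays. The mean log2 ratio was -0.78 ± 1.37 (Th1), 0.17 ± 0.09 (M/M) and -0.08 ± 0.18 (Th2), and without experiment 3, in which the array labelled Th1 stood far below the rest, 0.01, 0.17 and 0.02. The other Egr4 probe set, rc_AI145177_f_at, whose suffix marks probes shared within a gene family, gave 1.0, 1.0 and 42.7 on Th1 arrays, 5.01, 12.1 and 165 on M/M arrays, 5.68, 10.3 and 109 on Th2 arrays, and 8.00, 24.3 and 111 on control arrays. It lay below control on 8 of 9 treated arrays. The mean log2 ratio was -0.37 (M/M) and -0.59 (Th2), or -0.84 and -0.87 without experiment 3. The mean of -3.00 ± 1.61 for Th1 cytokines (-3.80 without experiment 3) rests on signals of 1.0 in experiments 1 and 2, a value that 200 to 249 probe sets shared on each array of those experiments, and was -0.95 with the offset of 16.

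Nr4a1 (Nur77) is known from activated lymphocytes and macrophages, in which it is quickly induced. Its probe set U17254_at gave 115, 125 and 37.9 on Th1 arrays, 111, 114 and 44.9 on M/M arrays, 78.0, 107 and 17.0 on Th2 arrays, and 98.4, 82.3 and 20.3 on control arrays. Th1 and M/M arrays were above their controls in 3 of 3 experiments, by a mean log2 ratio of 0.57 ± 0.34 and 0.60 ± 0.50, while Th2 arrays were above in 1 of 3, at -0.07 ± 0.39. All groups overlapped control arrays, and without experiment 3 the means were 0.41 (Th1), 0.32 (M/M) and 0.02 (Th2). With centred arrays they were 0.41, 0.17 and -0.28.

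The second Nr4a1 probe set, U17254_g_at, named for the same sequence, gave 38.9, 94.2 and 57.4 on Th1 arrays, 76.4, 66.2 and 45.6 on M/M arrays, 47.5, 59.5 and 41.2 on Th2 arrays, and 51.5, 27.4 and 56.4 on control arrays. Its treated arrays were well above control in experiment 2, where the control was the dimmest, and on both sides of it in the other experiments. The folds in experiment 2 were 3.44, 2.42 and 2.17 for Th1, M/M and Th2, or 2.17, 1.60 and 1.49 with centred arrays. The mean log2 ratios were 0.47 ± 1.16, 0.51 ± 0.79 and 0.18 ± 0.83 for Th1, M/M and Th2 cytokines, or 0.69, 0.92 and 0.50 without experiment 3. Over the 12 arrays, after centring on array medians and experiment means, the Nr4a1 probe sets correlated at 0.16 with each other.

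Nr4a2 (Nurr1), the member that dopamine neurons need to form, had 2 probe sets. L08595_at gave 27.6, 33.4 and 7.50 on Th1 arrays, 23.9, 29.4 and 19.2 on M/M arrays, 31.7, 42.5 and 15.5 on Th2 arrays, and 30.6, 18.6 and 20.4 on control arrays, with mean log2 ratios of -0.25, 0.07 and 0.28 for Th1, M/M and Th2. Without experiment 3 these were 0.35, 0.15 and 0.62, so that the Th1 mean changed sign. U01146_s_at ranged over all 12 arrays between 4.91 and 27.8, the lowest and the highest both on control arrays, with means of 0.03, 0.07 and -0.66, or 0.21, 0.41 and 0.02 without experiment 3, where the Th2 mean changed sign. Neither probe set separated treated from control arrays.

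Nr4a3 (NOR-1) was covered by 3 probe sets. X86003_at gave 28.2, 26.4 and 14.8 on Th1 arrays, 24.3, 24.9 and 26.2 on M/M arrays, 25.9, 21.4 and 32.8 on Th2 arrays, and 21.5, 17.4 and 29.2 on control arrays. It stood above control on 7 of 9 treated arrays, but by 1.52-fold at most. The mean log2 ratios were 0.00, 0.18 and 0.24 for Th1, M/M and Th2, or 0.50, 0.35 and 0.28 without experiment 3. Those of rc_AI176710_at were -0.20, 0.06 and 0.20, and -0.01, -0.20 and 0.10 without it. Those of rc_AI145834_at, whose signals lay between 1.10 and 7.70, were -0.56, 0.26 and 0.08, and 0.57, 0.73 and 0.33 without it. The sign thus turned for rc_AI176710_at with M/M and for rc_AI145834_at with Th1 cytokines.

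**Figure D3:**
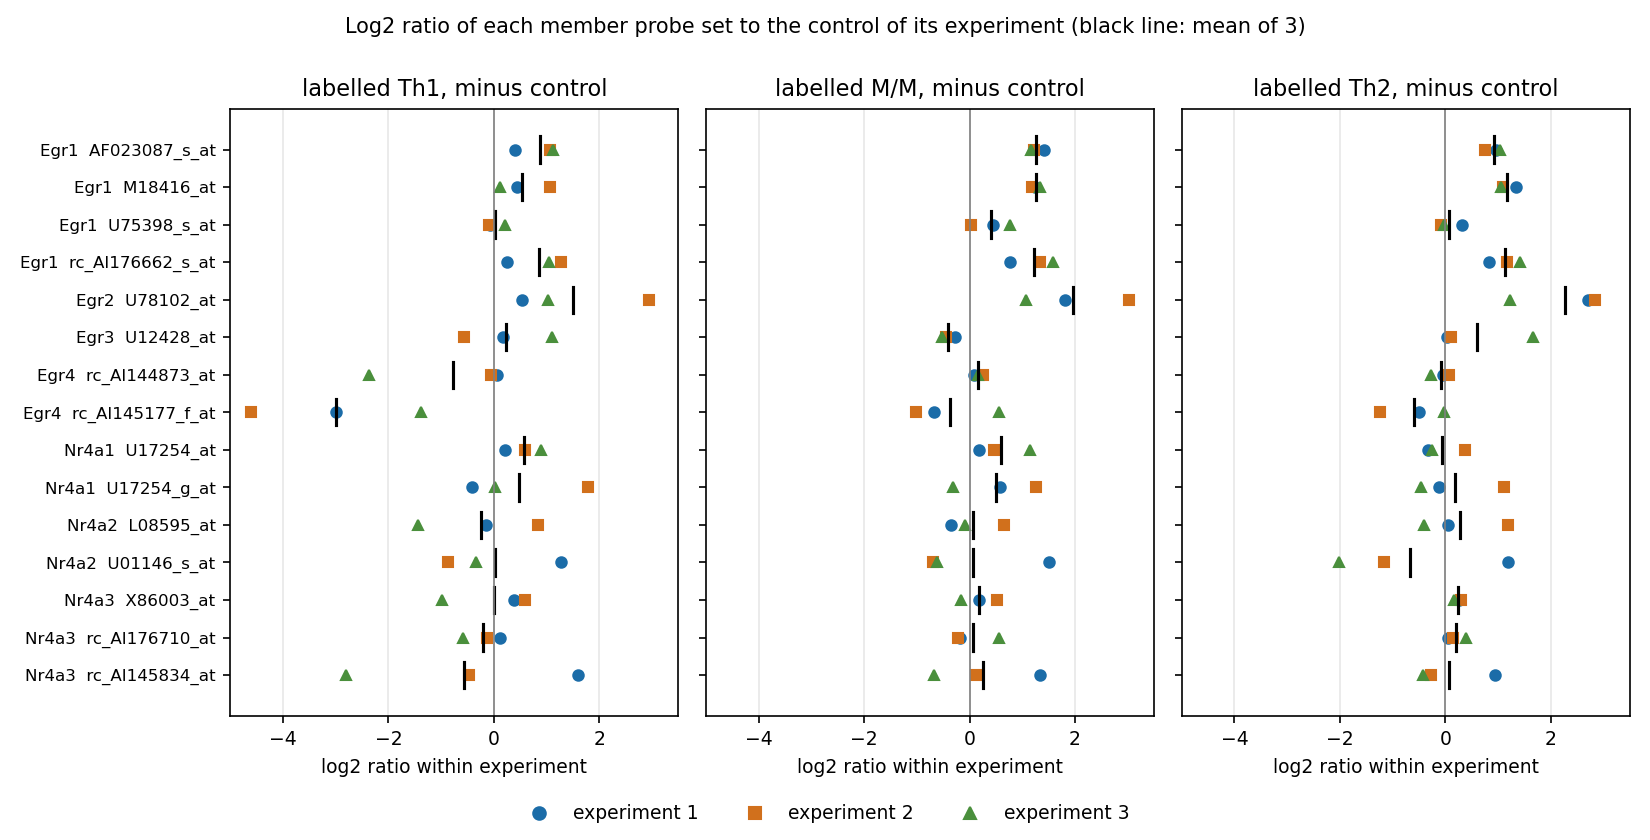
Log2 ratio of treated to control signal of the same experiment for each of the 15 probe sets, by labelled mixture, with 1 point an experiment and the mean. The Egr1 probe sets other than U75398_s_at, and Egr2, lie above 0 in all 9 ratios, whereas each probe set of the other members has ratios on both sides of 0.

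Over the 15 probe sets the median log2 ratio was 0.03 (Th1), 0.26 (M/M) and 0.20 (Th2), against 0.14, 0.33 and 0.19 for all 8740. Without experiment 3 the medians were 0.41, 0.35 and 0.28 for the members against 0.21, 0.18 and 0.19 for all. For Th1 and M/M cytokines, experiment 3 thus decides whether the members' median lay above or below that of all probe sets. For Th2 cytokines it was the higher of the pair either way, though barely so with all 3 experiments. With Th1 cytokines 5 of the 15 were higher than control in 3 of 3 experiments, as were 14% of all probe sets. With M/M cytokines 7 were, against 32%, and with Th2 cytokines 7, against 25%. More than 2-fold higher in the mean were 1, 4 and 3 members for Th1, M/M and Th2, where 5.76%, 11.6% and 7.01% of all probe sets were. Nothing is read from these shares, since the members were chosen with these ratios in view.

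With centred arrays, 4 members were higher in 3 of 3 experiments with each mixture, the same 3 Egr1 probe sets and Egr2, where 11.2% (Th1), 13.5% (M/M) and 14.9% (Th2) of all probe sets were. The 10 probe sets of Egr3, Egr4 and the Nr4a genes had medians of -0.10 (Th1), 0.12 (M/M) and 0.13 (Th2), and 0 of them reached a mean of 2-fold higher with any mixture. Without experiment 3 their medians were 0.28, 0.25 and 0.09. With centred arrays 3, 2 and 3 of these 10 had means above 0.

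Between mixtures, the signals of Egr1, Egr2 and Nr4a1 overlapped in each pairing, where 3.38% (M/M and Th1), 4.94% (M/M and Th2) and 2.2% (Th1 and Th2) of all probe sets did not. Nr4a2 U01146_s_at had 12.0, 12.2 and 22.1 on Th1 arrays, 14.0, 13.9 and 18.1 on M/M arrays and 11.3, 10.0 and 6.90 on Th2 arrays, which did not overlap the others, by a narrow margin. For Egr1 AF023087_s_at the mean within-experiment log2 difference was 0.41 ± 0.53 for M/M minus Th1, 0.36 ± 0.20 for M/M minus Th2 and -0.05 ± 0.45 for Th1 minus Th2, or 0.59, 0.47 and -0.12 without experiment 3. M18416_at gave 0.72 ± 0.55, 0.08 ± 0.18 and -0.63 ± 0.52 for the same differences, or 0.47, -0.01 and -0.47 without it. For Egr2 these were 0.46 ± 0.70, -0.30 ± 0.55 and -0.76 ± 1.24, the last resting on experiment 1, in which the Th2 array had 240 and the Th1 array 53.1. Without experiment 3 the Egr2 differences were 0.67, -0.37 and -1.04. For Nr4a1 U17254_at they were 0.02 ± 0.20, 0.67 ± 0.67 and 0.64 ± 0.47, or -0.09, 0.30 and 0.39 without it. The Egr4 probe set rc_AI145177_f_at had 2.62 ± 0.87 for M/M minus Th1, which rests on the Th1 signals of 1.0, and 0.22 ± 0.39 for M/M minus Th2.

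Genes whose pattern was most like that of Egr1 were looked for by Pearson correlation of centred log2 signals with AF023087_s_at over the 12 arrays, among other named genes brighter than the median. They were Slc7a1, a cationic amino acid transporter (0.91), Nop58, a nucleolar protein (0.89), Hbegf, a growth factor of the EGF family (0.88), Tars1, a threonyl tRNA synthetase (0.87), and Nmt1, an N-myristoyltransferase (0.86). Among the members, the values were 0.87 for the Egr1 probe set rc_AI176662_s_at, 0.75 for Egr2, 0.72 for M18416_at and 0.29 for U75398_s_at, and among the others 0.39 for Nr4a1 U17254_g_at, 0.20 for Nr4a1 U17254_at and 0.19 for Egr3. The remaining member probe sets lay between -0.62 for Nr4a2 L08595_at and 0.05 for Nr4a2 U01146_s_at, with -0.54 for Egr4 rc_AI144873_at and -0.48 for Nr4a3 rc_AI176710_at. For Nr4a1 U17254_at the genes most alike were Agxt and Arhgap1 (0.90 each), Slc22a7 and Cyp24a1 (0.89 each) and Trpc1 (0.87). Member probe sets correlated with it at values between -0.73 for Nr4a3 X86003_at and 0.43 for Nr4a2 U01146_s_at. All of these points share arrays and experiments, and they are given as a description.

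Of 40 other immediate early genes listed, 28 were measured, and their median log2 ratio was 0.42 (Th1), 0.59 (M/M) and 0.46 (Th2) (0.26, 0.16 and 0.25 centred). Without experiment 3 it was 0.44, 0.68 and 0.40, against 0.21, 0.18 and 0.19 for all probe sets. Of the 28, 23 (Th1), 26 (M/M) and 25 (Th2) were above 0 in the mean, as were 65.4%, 78.1% and 69.3% of all probe sets. More than 2-fold higher were 2, 9 and 5 of the 28, against 5.76%, 11.6% and 7.01% of all probe sets. Junb, a partner of Fos proteins in the AP-1 factor, was the only one past the limma test at an adjusted p under 0.05, which called 0% (Th1), 0.263% (M/M) and 0.0114% (Th2) of all probe sets. Its signal was 360, 278 and 228 on Th1 arrays, 563, 380 and 820 on M/M arrays, 431, 160 and 670 on Th2 arrays, and 168, 43.0 and 127 on control arrays. M/M arrays lay wholly above control arrays, and so did Th1 arrays, while the Th2 array of experiment 2 fell below the control of experiment 1. The log2 ratio was 2.53 for M/M (SE 0.37, limma adjusted p = 0.0251, higher in 3 of 3 experiments), 1.55 for Th1 (adjusted p = 0.599) and 1.88 for Th2 cytokines (adjusted p = 0.228). Without experiment 3 the ratios were 2.44, 1.90 and 1.62 for M/M, Th1 and Th2, and with centred arrays 2.10, 1.39 and 1.67. The M/M call was lost, with 0 genes of the lists called, with centred or quantile-normalised arrays, without the replicate block or the variance trend, and when experiment 2, any M/M array or the control array of experiment 2 or 3 was left out. It was also lost without experiment 3, where Icam1 was the 1 gene of the lists called, with both Th1 and M/M cytokines.

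Other immediate early genes had large ratios that did not pass the test. With M/M cytokines the log2 ratio was 2.36 for Ptgs2, which encodes cyclooxygenase-2 (limma adjusted p = 0.0842), 1.97 for the Fos relative Fosl1 (0.138) and 1.76 for Zfp36, whose protein hastens the decay of cytokine mRNA (0.0519). Without experiment 3 these ratios were 2.92, 2.06 and 1.53. Ptgs2 had 450, 149 and 56.1 on M/M arrays against 56.5, 20.8 and 23.9 on control arrays. Fos, whose induction is usually brief, had 317, 347 and 223 on M/M arrays against 217, 192 and 121 on control arrays. Its log2 ratios were 0.46 (Th1), 0.76 (M/M) and 0.44 (Th2), and those of Jun were 0.23, 0.36 and 0.19, close to the median of all probe sets. Without experiment 3 they were 0.41, 0.70 and 0.63 for Fos and 0.17, 0.13 and 0.25 for Jun. In the RefSeq windows of this list, CArG boxes were found for Dusp5, Klf6 and Zfp36, 3 of 30 listed genes with an entry.

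**Figure D4:**
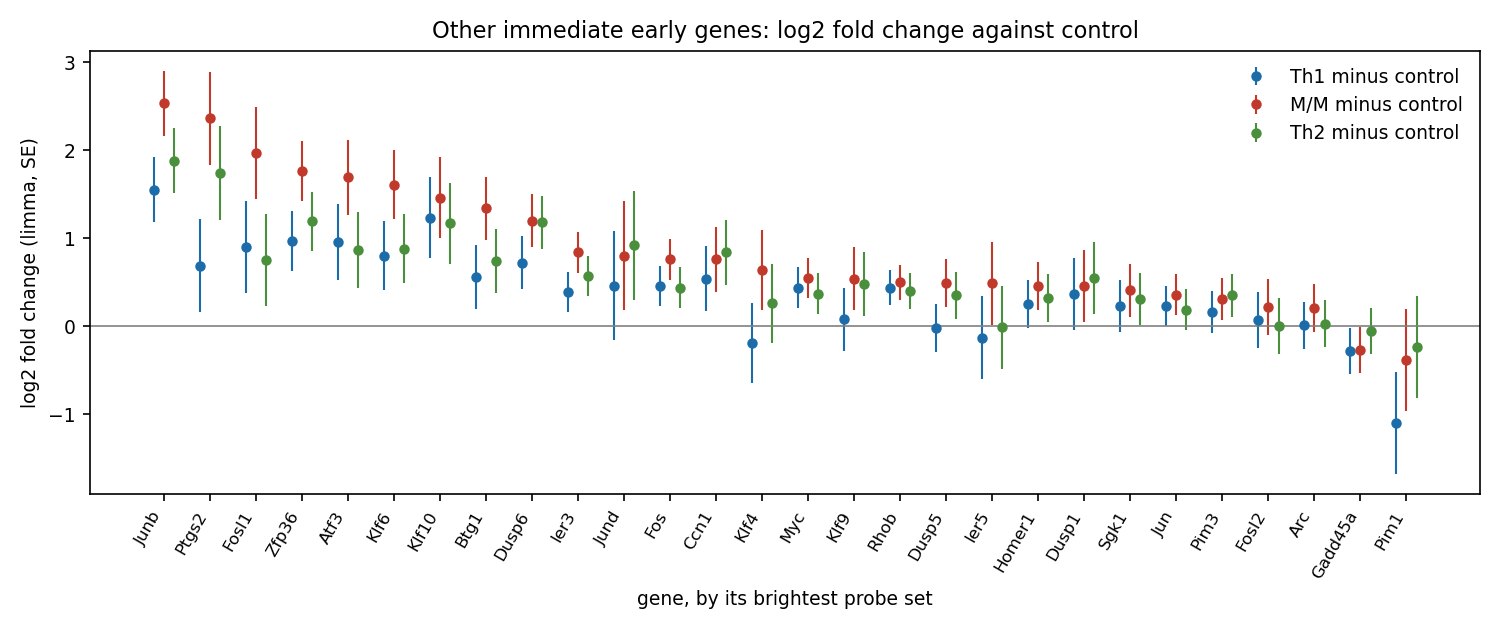
Log2 fold change against control of the 28 measured immediate early genes other than the members, each by its brightest probe set, with 1 point for each labelled mixture and bars for the limma SE. Junb has the highest M/M value, 2.53, Fos and Jun lie lower, at 0.76 and 0.36, and Pim1, whose value of -1.10 with Th1 rests on dim signals of 0.6 to 11.4, is at the right end.

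No gene of the other lists passed the limma test with any mixture when all 3 experiments were used. Of 28 listed kinases and factors upstream, 12 were measured, with medians of 0.28 (Th1), 0.36 (M/M) and 0.24 (Th2). With each mixture 0 of them were more than 2-fold higher, against 5.76%, 11.6% and 7.01% of all probe sets. The largest were Creb1, the cAMP response element binding protein, at 0.81 with M/M cytokines (adjusted p = 0.333), its relative Crem at 0.76 (0.367) and the kinase gene Camk2a at 0.71 (0.353). Without experiment 3 these were 0.29, 0.41 and 0.49. Of 14 cofactors and partners 7 were measured, with medians of 0.22 (Th1), 0.56 (M/M) and 0.03 (Th2). Nab1, a corepressor that restrains EGR proteins, had log2 ratios of 0.24, 0.69 and 0.36 for Th1, M/M and Th2 (limma adjusted p = 0.916, 0.292 and 0.794), or 0.39, 0.48 and 0.25 without experiment 3. The retinoid X receptors, with which Nr4a1 and Nr4a2 pair, had M/M ratios of 0.64 for Rxra and 0.59 for Rxrg (limma adjusted p = 0.577 and 0.412), or 1.16 and 0.57 without experiment 3.

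Of 20 reported Egr targets 17 were measured, with medians of 0.29 (Th1), 0.63 (M/M) and 0.39 (Th2). More than 2-fold higher were 1, 4 and 1 of them, against 5.76%, 11.6% and 7.01% of all probe sets. Without experiment 3 the medians were 0.33, 0.18 and 0.29, so that the M/M median was then that of all probe sets. Icam1, a leukocyte adhesion molecule, had 1863, 1413 and 321 on Th1 arrays, 1962, 1192 and 3120 on M/M arrays, 471, 184 and 1811 on Th2 arrays, and 410, 171 and 397 on control arrays. Its M/M arrays lay wholly above control, at a log2 ratio of 2.68 (limma adjusted p = 0.127), and its arrays of experiment 3 had the same order as those of Irf1. Without experiment 3 its ratio was 2.62 (Th1, against 1.64 with it), 2.53 (M/M) and 0.15 (Th2), and it was then called for Th1 and M/M. Cd44, the hyaluronan receptor, had 1.92 with M/M cytokines (limma adjusted p = 0.171) and Tnf 1.71 (0.263), or 1.64 and 0.74 without experiment 3. TNF-alpha protein was itself part of the Th1 and M/M mixtures.

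The 10 reported Nr4a targets had medians of 0.10, 0.35 and 0.28 for Th1, M/M and Th2, close to those of all probe sets, and 0.14, 0.01 and -0.10 without experiment 3. The largest ratios with M/M cytokines were 1.44 for the steroid hydroxylase gene Cyp21a1 and 1.03 for Pomc, the precursor of corticotropin (limma adjusted p = 0.405 and 0.267), and Crh, for corticotropin-releasing hormone, had 1.10 with Th2 (0.753). Without experiment 3 these were 1.75, 0.49 and -0.13, so that the Crh ratio turned. The ratios of Cyp21a1 and Crh rest on dim signals, of 1.0 to 14.75 and 0.8 to 21.64 over all arrays. Over the 73 distinct genes of these lists, limma called 0 (Th1), 1 (M/M) and 0 (Th2), and 8, 23 and 10 had an unadjusted p under 0.05, as had 5.56%, 15.9% and 6.75% of all probe sets.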

How the data were processed

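RNA of 12 rat glial cultures, 4 groups in 3 experiments, was measured on Affymetrix rat arrays. The deposited intensity values are linear probe-set signals that the authors computed with dChip, and a normalization between arrays is not given in the sources used here. Experiment 3 differed in scale, with array medians of 24.5 to 42.2. On its arrays 167 to 403 probe sets lay below 1, against 0 to 3 on those of experiments 1 and 2. The reason was not tested. Of 8799 probe sets, 59 array controls were left out. Of the 8740 tested, 7006 have 1 gene symbol in the platform annotation, 308 several and 1426 none. Signals were raised to a floor of 0.1 where they lay under it, then log2 transformed. Each mixture was compared with control by limma 3.58.1 under R 4.3.3. The fit took the experiment as replicate block and a trended variance prior, with 6 residual degrees of freedom and 6.94 from the prior. Benjamini-Hochberg adjustment covered all probe sets. The code was tested on simulated data. Arrays of 1 experiment, which the labels tie by a shared code, deviated together from their group means (18 correlations, 0.439 to 0.708, against -0.625 to 0.357 for 36 pairs of different experiments). P-values rest on the spread left once group and experiment means are taken out, pooled over all 12 arrays and moderated by the prior. That spread includes the treated arrays of experiment 3 that went against their labels, and the number of arrays limits the precision.

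All probe sets of the members were named, with the 5 genes most like Egr1 and most like Nr4a1. Genes of the other lists, each by its brightest probe set, were named where past the threshold or among the 3 with the largest ratios of a list, and Fos, Jun, Pim1 and Zfp36 were added after their values were seen. The members, lists, motifs and tests were chosen with earlier results of these data known. Alternatives were centring, quantile normalization, a floor of 1, an offset of 16, no or a random replicate block, no variance trend, a filter on dim probe sets, the methods' screen (a change over 2-fold with p under 0.2 by unpaired analysis of variance) and each replicate or array left out. Promoter sequences are from RefSeq (GRCr8), which held 5 of the 7 members.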

Additional observations from a re-analysis of the deposited data

Results flagged for a closer look

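Egr3 U12428_at lay below control in 3 of 3 experiments with M/M cytokines and above it in 3 of 3 with Th2 cytokines, and the mean within-experiment log2 difference, M/M minus Th2, was -1.01 ± 1.02 (SD, n = 3). This difference was not tested. The Th2 folds were 1.02, 1.08 and 3.15 in experiments 1, 2 and 3, and with centred arrays Th2 lay above control in 2 of 3. Without experiment 3, whose treated arrays went against their labels and in which the probe set had 2.70 on the M/M array and 12.3 on the Th2 array, the difference was -0.43.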

How the results depend on the processing

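The ratios of 3 Egr1 probe sets and of Egr2 stayed above 0 in every alternative, whereas ratios of other probe sets turned, among them the following. Without experiment 3 the Th1 ratio was 0.57 for Nr4a3 rc_AI145834_at, 0.35 for Nr4a2 L08595_at, 0.01 for Egr4 rc_AI144873_at and -0.20 for Egr3, and the Th2 ratio of Nr4a2 U01146_s_at was 0.02. With M/M, centring gave -0.25 for Nr4a3 X86003_at and -0.17 for Nr4a3 rc_AI145834_at. Egr1 U75398_s_at with M/M was -0.02 centred, Egr4 rc_AI144873_at with M/M -0.26 centred and -0.22 after quantile normalization, Nr4a3 X86003_at with Th2 -0.02 after quantile normalization, and Nr4a3 rc_AI176710_at with Th2 -0.02 centred and -0.06 after quantile normalization. The cause was not tested.

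The members' median log2 ratio with M/M was -0.17 centred, -0.18 after quantile normalization and 0.14 with the offset, and with Th2 -0.02 centred and -0.05 after quantile normalization. Members higher in 3 of 3 experiments fell to 4 with M/M (centred) and to 4 with Th2 (centred and quantile). Those more than 2-fold higher numbered 1 with M/M and 1 with Th2 in both scalings, and 0 with Th1 with the offset. With 1 experiment left out, the medians were 0.06 to 0.41 (Th1) and 0.28 to 0.35 (M/M). Counts over 2-fold were then 0 to 3 (Th1), and counts higher in every remaining experiment were 7 to 10 (M/M). Members' values were not recomputed with single arrays left out.

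Limma called 0, 23 and 1 probe sets for Th1, M/M and Th2. For M/M and Th2 it called 0 without the replicate block, centred, after quantile normalization and without the variance trend. For M/M it called 14 with the offset and 57 with dim probe sets left out. The methods' screen took 242, 596 and 299 probe sets, of which 174, 555 and 251 were higher, and 2, 12 and 3 genes of the lists. Of the lists, limma called 0 for M/M without the replicate block, centred, after quantile normalization and without the trend, and 2 with dim probe sets left out. Without the replicate block, 82, 297 and 92 probe sets had an unadjusted p under 0.05.

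With a replicate or array left out, limma called 0 to 82 probe sets for Th1, 0 to 183 for M/M and 0 to 3 for Th2, and 0 to 4 (Th1) and 0 to 10 (M/M) list genes. Without the array labelled Th1 of experiment 3 the counts were 82 for Th1 and 183 for M/M, and without experiment 3 they were 58 for Th1 and 34 for M/M. The Th1 count was also 7 without the Th2 array of experiment 3. The M/M count was 70 without experiment 1, 77 without the Th1 array of experiment 2, 72 without the Th2 array of experiment 3, 66 without the control of experiment 1 and 13 without the Th1 array of experiment 1. It was 0 without experiment 2, any M/M array, or the control of experiment 2 or 3. The Th2 count was 0 without experiment 1 or 3, the M/M array of experiment 3, the Th2 array of experiment 1 or 3, or any control, 2 without experiment 2 and 3 without its Th2 array.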

Other observations

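A probe set to which the annotation gives no gene, U75397UTR#1_s_at, had an order much like that of Egr1. Its signal was 247, 199 and 187 on Th1 arrays, 565, 216 and 241 on M/M arrays, 438, 193 and 185 on Th2 arrays, and 179, 62.2 and 91.0 on control arrays. All treated arrays exceeded all control arrays. Of all probe sets, 1.54% had Th1 signals, 7.48% M/M signals and 2.77% Th2 signals wholly above control, and the share with every mixture above was not computed. The log2 ratio was 1.06 (Th1), 1.62 (M/M) and 1.32 (Th2) (SE 0.25), with limma adjusted p = 0.599, 0.0251 and 0.228. With centred arrays the M/M ratio was 1.19 (adjusted p = 0.159). It was chosen after its values were seen, and is left without a gene name here.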
